A study of Mus musculus with 7 samples.

Results

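The proteins of the mitochondrial ribosome are encoded by nuclear genes, named Mrpl for the large subunit and Mrps for the small one. All genes of the deposited table whose symbol begins with Mrpl or Mrps and a number were taken, and 4 symbols ending in a pseudogene suffix were left out. This gave 76 genes of 37310, 47 named Mrpl and 29 named Mrps. Their levels were followed in 7 RNA-seq libraries of sorted mouse intestinal crypt cells from 3 diets. All mice carried BmicreERT2, a tamoxifen-inducible Cre recombinase at the Polycomb gene Bmi1, together with the red fluorescent reporter Rosa26RFP, and all were 3 months old. Each had received 1 diet since weaning. The highly purified diets were AIN76A, the control, NWD1, a Western-style mix richer in fat and poorer in calcium and vitamin D3, and NWD2, in which NWD1 received extra calcium and vitamin D3. The series holds 2 AIN76A libraries, 3 NWD1 libraries and 2 NWD2 libraries, all from males except NWD1 replicate 2. Cells with high red fluorescence that stained for the epithelial surface protein Epcam and not for the leukocyte protein CD45 were sequenced in bulk, so the marked cells are those in which the Bmi1 Cre had acted and their descendants. The labels do not say whether the libraries came from separate animals, and the p-values therefore measure only the spread between these samples, which may be technical.

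The mitochondrial ribosome translates the few messenger RNAs of the mitochondrial genome, which encode subunits of the respiratory chain and of ATP synthase. Its proteins are made in the cytosol, imported and assembled on a pair of ribosomal RNAs that the mitochondrion transcribes itself. Stem cells of the intestinal crypt are known for active mitochondrial respiration.

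The libraries held 14034315 to 77959407 counted reads, with the smallest total in NWD1 replicate 3. The diet of that library is less certain than the others. The deposited table of TPM (a level per transcript length) has no column with its name. It holds instead 1 column headed as an NWD2 replicate that matches no sample title, and whether this is the same library is not stated. Transcripts of Bmi1 were present in every library, at 2.12 to 5.25 CPM. CPM here are read counts scaled to a common library size with TMM factors, which aligns the libraries on the bulk of their genes. Markers of other intestinal epithelial cell types were also present in every library. Summed Paneth cell markers ranged from 22730 to 32911 CPM with AIN76A, from 12240 to 17107 with NWD1 and from 8957 to 17750 with NWD2. Summed enterocyte markers ranged from 34194 to 40460, from 34374 to 52969 and from 36849 to 76958 CPM. Summed enteroendocrine markers ranged from 1708 to 2145, from 1583 to 1839 and from 428 to 590 CPM. The value of 1583 CPM was that of NWD1 replicate 3. No marker of these 3 lists was at 0 in every library. In bulk samples, fewer cells of a type and less RNA per cell cannot be told apart.

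Of the 76 genes, 67 matched a RefSeq promoter on GRCm38.p6, taken as the 250 bases before the annotated start and 50 after it. The deposited values were made on mm9, so these coordinates locate only the printed sequences. The motifs searched on both strands were GCGCA and GCGC with any base between them for NRF1, CCGGAAG for the ETS family that includes GABPA, AAGATGGCG for YY1, GGGCGG for SP1, CACGTG for the E-box and TATAAA for the TATA box. NRF1 and GABPA are known as activators of nuclear genes for mitochondrial proteins. The NRF1 letters were in 12 of the 67 promoters (17.9%) against 4.78% of 27025 promoters of all genes, the ETS letters in 23 (34.3%) against 9.12%, and the YY1 letters in 8 (11.9%) against 1.49%. At least 1 of these 3 motifs was in 38 of the 67 promoters (56.7%) and in 14.0% of all promoters. SP1 letters were in 49.3% against 35.91%, E-box letters in 7.5% against 7.24%, and TATA box letters in 6.0% against 14.16%. The median GC content was 58.0% for the promoters of these genes and 52.7% for all. The first 3 promoters below are of genes whose levels followed those of most others, with an NRF1, a YY1 or an ETS match. The last 3 are of genes whose levels departed from the others, and are shown to set them beside the first. The sets were not chosen alike, since a match was asked of the first 3 only. Of 5 such departing genes with a promoter, 1 had the NRF1 letters, 2 the ETS letters and 1 the YY1 letters. Of 60 genes that followed most others, 11, 20 and 7 had them. Each is printed 5′ to 3′ on the strand of its gene, with every match to the 6 motifs in capitals.
Mrpl12: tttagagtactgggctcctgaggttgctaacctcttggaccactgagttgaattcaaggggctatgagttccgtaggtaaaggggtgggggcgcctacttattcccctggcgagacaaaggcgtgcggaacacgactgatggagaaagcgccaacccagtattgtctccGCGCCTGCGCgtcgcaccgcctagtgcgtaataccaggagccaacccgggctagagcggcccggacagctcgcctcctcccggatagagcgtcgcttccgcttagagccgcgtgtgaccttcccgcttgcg
Mrpl42: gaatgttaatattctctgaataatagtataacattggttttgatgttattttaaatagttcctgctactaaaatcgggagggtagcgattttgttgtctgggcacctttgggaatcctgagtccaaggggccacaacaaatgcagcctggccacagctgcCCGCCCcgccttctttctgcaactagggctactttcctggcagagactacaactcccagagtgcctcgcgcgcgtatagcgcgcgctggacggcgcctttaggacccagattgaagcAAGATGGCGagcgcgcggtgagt
Mrps27: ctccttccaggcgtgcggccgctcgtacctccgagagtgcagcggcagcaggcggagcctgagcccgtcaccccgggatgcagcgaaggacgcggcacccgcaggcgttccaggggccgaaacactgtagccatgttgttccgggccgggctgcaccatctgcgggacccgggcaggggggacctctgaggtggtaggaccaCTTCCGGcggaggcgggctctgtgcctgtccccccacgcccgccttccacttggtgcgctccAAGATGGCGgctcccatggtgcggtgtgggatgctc
Mrps30: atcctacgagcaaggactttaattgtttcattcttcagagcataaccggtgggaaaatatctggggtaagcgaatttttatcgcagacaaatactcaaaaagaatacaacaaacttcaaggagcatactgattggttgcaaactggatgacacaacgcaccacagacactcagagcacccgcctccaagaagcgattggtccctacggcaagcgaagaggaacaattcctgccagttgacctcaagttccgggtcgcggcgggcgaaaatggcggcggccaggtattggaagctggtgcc
Mrps24: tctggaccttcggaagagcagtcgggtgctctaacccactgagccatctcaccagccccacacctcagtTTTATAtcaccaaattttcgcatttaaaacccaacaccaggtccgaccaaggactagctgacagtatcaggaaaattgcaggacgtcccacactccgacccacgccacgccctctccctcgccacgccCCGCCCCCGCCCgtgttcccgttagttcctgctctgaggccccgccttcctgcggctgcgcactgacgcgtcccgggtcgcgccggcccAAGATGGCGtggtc
Mrps26: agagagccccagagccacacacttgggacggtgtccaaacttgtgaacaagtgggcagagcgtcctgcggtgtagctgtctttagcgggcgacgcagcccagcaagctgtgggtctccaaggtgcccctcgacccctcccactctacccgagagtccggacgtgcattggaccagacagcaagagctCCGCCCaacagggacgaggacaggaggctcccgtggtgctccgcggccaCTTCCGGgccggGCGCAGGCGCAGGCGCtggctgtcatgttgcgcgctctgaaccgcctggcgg
The Mrpl12 promoter (chr11:120484387-120484686, plus strand) holds an NRF1 match beginning 81 bases before the start. That of Mrpl42 (chr10:95501900-95502199, minus strand) holds a YY1 match beginning at base 28 after it and an SP1 match at -90. The Mrps27 promoter (chr13:99344536-99344835, plus strand) holds an ETS match at -48 and a YY1 match at 15. None of the 6 motifs is in the window of Mrps30 (chr13:118387203-118387502, minus strand). That of Mrps24 (chr11:5707652-5707951, minus strand) holds a YY1 match at 37, a TATA box match at -181 and a pair of adjoining SP1 matches at -53 and -47. In the Mrps26 window (chr2:130563507-130563806, plus strand) a pair of overlapping NRF1 matches lie at -2 and 5, with an ETS match at -14 and an SP1 match at -63. A match says only that the letters are there, and binding was not measured.

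Per transcript length, the members spanned a wide range of levels. In the 6 libraries with a TPM column, Mrpl42 had the highest mean, 375 ± 64.5 TPM (SD, n = 6). It was followed by Mrpl34 at 276, Mrpl4 at 190, Mrpl36 at 179 and Mrpl55 at 166 TPM. The lowest were Mrps25 at 9.49, Mrpl19 at 8.31, Mrps10 at 8.06 and Mrpl23 at 5.99 TPM, apart from Mrpl53. Mrpl53, a protein near the stalk of the large subunit, had counts of 1, 0, 2, 0, 0, 1 and 0 in the 7 libraries and did not pass the filter on low counts, so 75 members were tested. Its exons overlap Gm42688 on the same strand and Ccdc142os on the other in GENCODE M21, and the part of these overlaps in its counts was not tested. Between the steps of this order the libraries mostly overlapped. Of 75 neighbouring pairs, 2 had ranges that did not overlap, Mrpl34 above Mrpl4 and Mrpl23 above Mrpl53. The median of the mean TPM was 62.7 for genes named Mrpl and 39.3 for those named Mrps. In the plot of TPM by member, long bars mark the few genes that varied most between libraries.

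**Figure D1:**
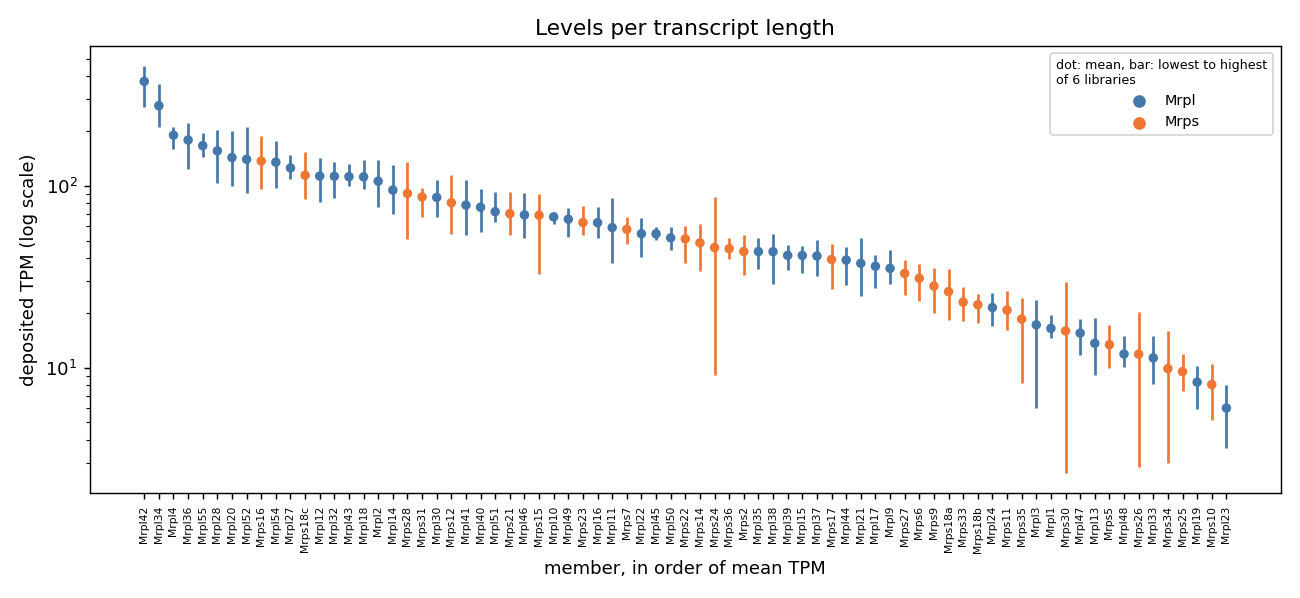
Deposited TPM of 75 members on a log axis, in order of mean; the dot is the mean and the bar runs from the lowest to the highest of 6 libraries, blue for Mrpl and orange for Mrps. Mrpl42 leads at 375 TPM, Mrpl23 is last at 5.99 TPM, and Mrps24, Mrps26, Mrps30 and Mrps34 have the longest bars (Mrpl53, listed at 0 in some libraries, is not drawn).

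With TMM scaling, the summed level of the tested members was highest in AIN76A replicate 1 and lowest in NWD1 replicate 3. The lowest library depended on the scaling. As a plain share of all counts, the members made up 0.293% in NWD2 replicate 2, the lowest, and 0.314% in NWD1 replicate 3. AIN76A replicate 1 was still the highest, at 0.551%. The TMM factor was 0.7975 for NWD2 replicate 2 and 0.951 to 1.093 for the others. The AIN76A libraries had 5796 and 3796 CPM, the NWD1 libraries 4392, 3236 and 2926 CPM, and the NWD2 libraries 4252 and 3672 CPM. The means were 4796 ± 1414 (SD, n = 2), 3518 ± 773 (n = 3) and 3962 ± 410 (n = 2) CPM. The diets overlapped. The 1.53-fold difference between both AIN76A libraries and the 1.5-fold difference between NWD1 replicates 1 and 3 were larger than any ratio of diet means, the largest of which was 1.36 for AIN76A over NWD1. AIN76A replicate 1 was the highest library for 67 of the 75 members, and for 21.6% of all 14626 genes tested. NWD1 replicate 3 was the lowest for 49 members and for 18.4% of all genes. AIN76A replicate 1 also had the highest summed Paneth and goblet cell markers, at 32911 and 18471 CPM against 8957 to 22730 and 5194 to 10420 CPM elsewhere, and the part of these cells in the members' levels was not tested.

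**Figure D2:**
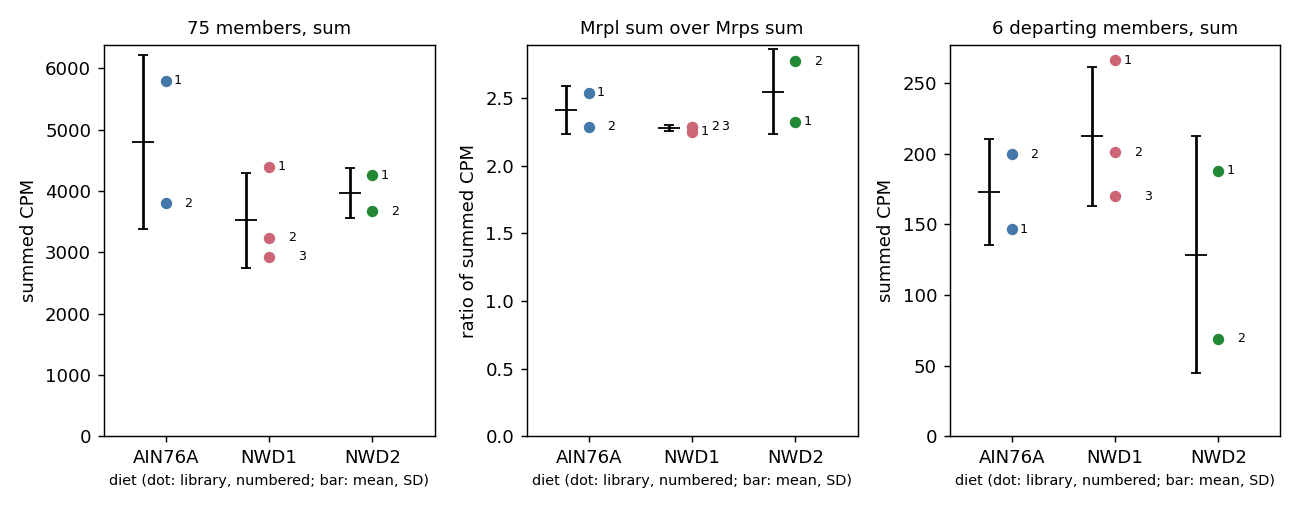
Summed CPM of the tested members, the ratio of summed Mrpl to summed Mrps CPM, and the summed CPM of the 6 members that departed from the others, by diet; dots are libraries with their replicate numbers and bars are mean and SD. In the first panel the AIN76A libraries, and NWD1 replicates 1 and 3, lie further apart than the means of any pair of diets. NWD2 replicate 2 has the highest ratio, 2.77, and the lowest sum of the 6, 69.2 CPM.

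Most members moved together from library to library. For each, the correlation of its log2 level over the 7 libraries with the median profile of the other members was taken as a description, since the members share libraries, depth and scaling. This r was above 0.8 for 67 of 75 members (89.3%) and for 11.3% of all genes tested, and its median over the members was 0.951. The median member stood at 0.60 and -0.04 relative to its own mean on the log2 scale in the AIN76A libraries, at 0.17, -0.27 and -0.43 in the NWD1 libraries and at 0.12 and -0.08 in the NWD2 libraries. The count of 67 was 60 without AIN76A replicate 1 and 66 or 67 without any other library, an alternative chosen after the data were seen. Between its highest and its lowest library a member differed by a median of 2.22-fold, from 1.40-fold for Mrpl1 to 9.08-fold for Mrps30.

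**Figure D3:**
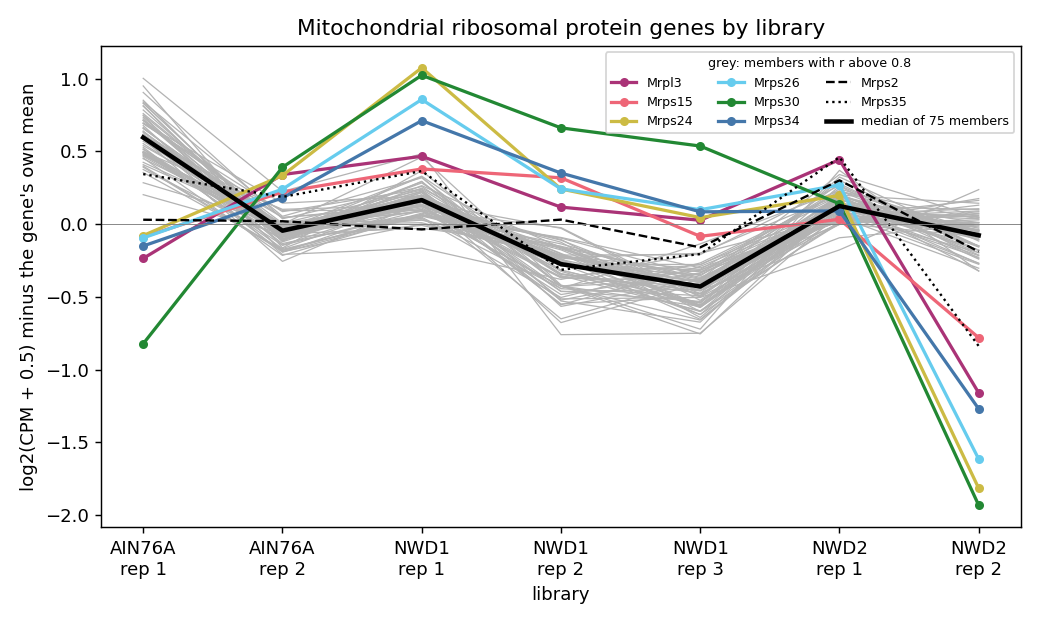
Level of each tested member by library, as log2(CPM + 0.5) minus the gene's own mean; grey lines are the 67 members with r above 0.8, the black line is the median of all 75, and coloured or dashed lines are the other 8. The grey lines keep together and are all highest in AIN76A replicate 1, while the 6 coloured genes are highest in NWD1 replicate 1 and lowest in NWD2 replicate 2.

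With NWD1 against AIN76A, the fitted log2 fold changes of the members lay mostly below 0, and none passed the test. The edgeR quasi-likelihood test called 0 of 75 members at an adjusted p under 0.05 and 0% of all genes tested. No member had an unadjusted p under 0.05 (3.42% of all genes did). The DESeq2 Wald test also called 0 members, and 1 of the 14626 genes tested. The value was below 0 for 69 of 75 members and for 49.4% of all genes, and above 0 for 6 members and 50.6% of all genes, with a median of -0.47 for the members and 0.01 for all. Genes named Mrpl had a median of -0.50 and those named Mrps -0.43. In no member were all 3 NWD1 libraries below both AIN76A libraries (8.61% of all genes), and in 1, Mrps30, all were above (11.4% of all genes). The median was -0.11 without AIN76A replicate 1, with 62 members below 0, and -0.75 without AIN76A replicate 2.

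Mrps28, a small-subunit protein whose human gene is mutated in an inherited respiratory chain deficiency, had the lowest fold change of this comparison. Its levels were 66.5 and 38.6 CPM with AIN76A, 46.3, 19.3 and 19.4 CPM with NWD1, and 34.7 and 27.1 CPM with NWD2. NWD1 replicates 2 and 3 were the lowest, NWD1 replicate 1 lay between the AIN76A libraries, and the log2 fold change was -0.89 (SE 0.42, edgeR adjusted p = 0.878). Mrpl11, at the base of the stalk that recruits translation factors, had 44.3 and 24.1 CPM with AIN76A, 28.1, 18.2 and 15.3 CPM with NWD1 and 24.3 and 18.9 CPM with NWD2. Again NWD1 replicate 1 overlapped the AIN76A libraries, and the log2 fold change was -0.73 (SE 0.36). Mrps10, of the head of the small subunit, had the smallest unadjusted p, 0.0521, at -0.71 (SE 0.32).

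With NWD2 against AIN76A, most values again lay below 0, and the same test called 0 of 75 members and 0% of all genes. No member had an unadjusted p under 0.05 (3.83% of all genes). The DESeq2 Wald test called 0 members, and 52 of the 14626 genes tested. The value was below 0 for 72 members and 52.6% of all genes, with a median of -0.30 for the members and -0.03 for all. In 5 members both NWD2 libraries lay below both AIN76A libraries (13.2% of all genes), namely Mrpl17, Mrpl37, Mrps10, Mrps14 and Mrps28. Mrps28 had the lowest value, -0.77, and Mrps23 the highest, 0.07. The direction rested on AIN76A replicate 1, without which the median was 0.07 with 17 members below 0. It was -0.56 without AIN76A replicate 2 and -0.17 without NWD2 replicate 2.

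With NWD2 against NWD1, most values lay slightly above 0, and 0 of 75 members and 0% of all genes were called. No member had an unadjusted p under 0.05 (7.89% of all genes). The DESeq2 Wald test called 0 members, and 180 of the 14626 genes tested. The value was above 0 for 68 members and 53.5% of all genes, with a median of 0.19 for the members and 0.05 for all. This direction depended on the scaling. With library size alone the median was -0.03 against -0.19 for all genes, with 51 members below 0. On deposited TPM, without NWD1 replicate 3, it was -0.12 against -0.11, with 64 members below 0. In 5 members, Mrpl9, Mrpl10, Mrpl43, Mrpl50 and Mrps23, both NWD2 libraries lay above all NWD1 libraries (10.8% of all genes). In 1, Mrps30, both lay below (14.5% of all genes). The median was 0.08 without NWD1 replicate 3, 0.07 without NWD2 replicate 1, 0.40 without NWD1 replicate 1 and 0.29 without NWD2 replicate 2.

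**Figure D4:**
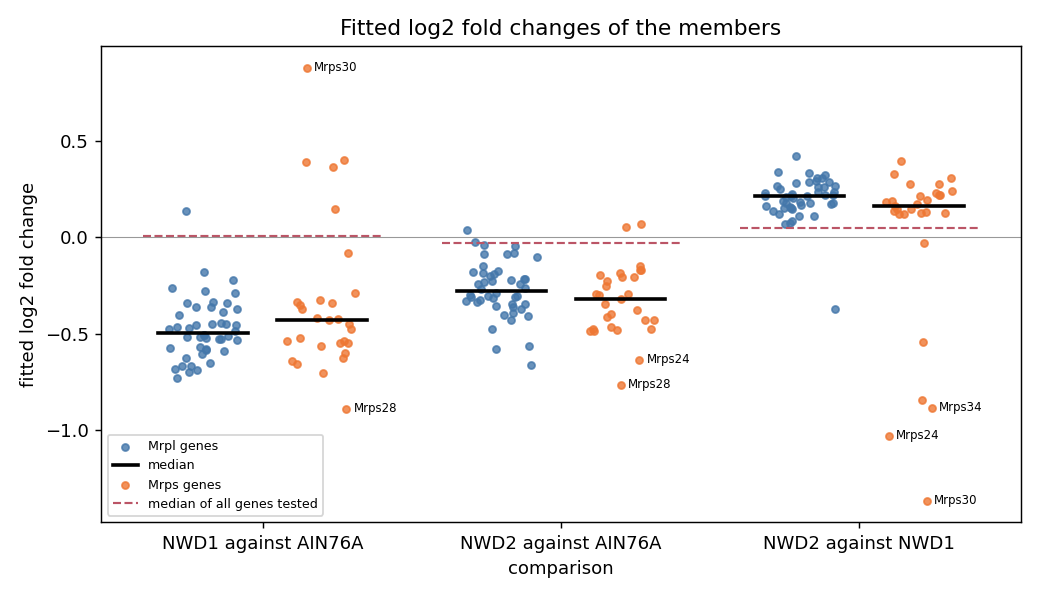
Fitted log2 fold change of each tested member in the 3 comparisons, blue for Mrpl and orange for Mrps; black bars are medians of each and the dashed line is the median of all genes tested. Members lie mostly below the dashed line in both comparisons with AIN76A, and Mrps30 has the highest value with NWD1 against AIN76A (0.88) and the lowest with NWD2 against NWD1 (-1.36).

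The parts of the large subunit gave like values, and 0 members of any part were called in any of the 3 comparisons. The 5 genes of the catalytic region, Mrpl2, Mrpl3, Mrpl4, Mrpl16 and Mrpl27, whose proteins lie near the site of peptide bond formation, had a median log2 fold change of -0.37 with NWD1 against AIN76A. The 4 tested genes of the stalk had a median of -0.55, the 5 of the central protuberance, which touches the small subunit, -0.52, and the 7 of the exit tunnel and membrane side -0.46. With NWD2 against AIN76A these medians were -0.23, -0.31, -0.24 and -0.24. Mrpl12, the stalk protein that also binds the mitochondrial RNA polymerase, had 136 and 83.7 CPM with AIN76A, 103, 60.2 and 72.4 CPM with NWD1 and 94.8 and 88.3 CPM with NWD2. Its diets overlapped, and its log2 fold change with NWD1 against AIN76A was -0.48 with a 95% interval from -1.19 to 0.22. Mrpl42 had 190 and 121 CPM with AIN76A, 141, 111 and 89.2 CPM with NWD1 and 137 and 111 CPM with NWD2, again with overlap. Mrpl45, which tethers the ribosome to the inner membrane, had a value of -0.22 (SE 0.26).

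Within the small subunit the 6 genes of the decoding centre and head had medians of -0.52, -0.45 and 0.16 in the order of the comparisons above. The 8 small-subunit genes known from inherited human disease had -0.43, -0.34 and 0.14. Mrps12, a decoding centre protein, had 74.3 and 38.2 CPM with AIN76A, 47.6, 32.6 and 26.8 CPM with NWD1 and 46.9 and 34.6 CPM with NWD2. AIN76A replicate 1 was the highest and the diets overlapped. Mrps2, at the back of the subunit, stayed between 58.0 and 81.7 CPM in all 7 libraries and had an r of 0.38.

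Mammals have 3 paralogues of the bacterial protein S18, of which Mrps18a is built into the large subunit and Mrps18b and Mrps18c into the small one. All 3 had an r above 0.8. Per transcript length Mrps18c was the highest, with a mean of 114 TPM against 26.2 for Mrps18a and 22.2 for Mrps18b. Mrps18c had 104 and 60.1 CPM with AIN76A, 71.2, 44.1 and 42 CPM with NWD1 and 63.9 and 59.3 CPM with NWD2. The log2 fold changes with NWD1 against AIN76A were -0.64 for Mrps18c, -0.54 for Mrps18a and -0.35 for Mrps18b, and none passed the test. Mrps36, whose protein is now known as a component of the 2-oxoglutarate dehydrogenase complex, had an r of 0.89 and a value of -0.33 (SE 0.30).

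In 6 members, r was under 0.2, as it was in 61.1% of all genes tested. They were Mrps30, Mrps34, Mrps15, Mrpl3, Mrps26 and Mrps24, at -0.29, -0.01, 0.01, 0.01, 0.07 and 0.10. The limits of 0.8 and 0.2 were set and these genes singled out after their values were seen, so what follows is a description. All 6 were highest in NWD1 replicate 1 and lowest in NWD2 replicate 2. Of all genes tested, 11.6% were highest in NWD1 replicate 1 and 22.3% were lowest in NWD2 replicate 2. Their summed level was 147 and 199 CPM with AIN76A, 266, 201 and 170 CPM with NWD1 and 188 and 69.2 CPM with NWD2. Among themselves they were alike, with r from 0.91 to 0.996 over 15 pairs. Of all genes tested, 7.95% had an r above 0.8 with the median of these 6. That 0 of the other 67 members did was fixed by the choice of both sets by r. Mrps35, with an r of 0.58, and Mrps2 lay between the sets.

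Mrps30, whose protein despite its name sits in the large subunit, varied the most of all members. Its levels were 6.14 and 14.9 CPM with AIN76A, 23.4, 18.1 and 16.5 CPM with NWD1, and 12.4 and 2.57 CPM with NWD2. All NWD1 libraries lay above all others, and NWD2 replicate 2 was the lowest. The log2 fold change was 0.88 (SE 0.61) with NWD1 against AIN76A and -1.36 (SE 0.62, edgeR adjusted p = 0.651) with NWD2 against NWD1. The first of these was 0.37 without AIN76A replicate 1 and 1.66 without AIN76A replicate 2. Without NWD2 replicate 2 the second was -0.63 and without NWD2 replicate 1 it was -2.94. With no filter on low counts Mrps30 was called in this comparison (edgeR adjusted p = 0.0388), as were 384 genes in all.

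Mrps24, of the small subunit's head near the messenger RNA entry, had 28.4 and 38.0 CPM with AIN76A, 63.8, 35.6 and 31.0 CPM with NWD1 and 34.5 and 8.17 CPM with NWD2. Its value of -1.03 (SE 0.56) with NWD2 against NWD1 was -0.33 without NWD2 replicate 2, -2.44 without NWD2 replicate 1 and -0.64 without NWD1 replicate 1. Mrps26 had 22.6 and 28.7 CPM with AIN76A, 44.2, 28.7 and 26.0 CPM with NWD1 and 29.3 and 7.56 CPM with NWD2. In both genes NWD2 replicate 2 stood far below the other 6 libraries, which overlapped across diets. Mrps34, of the small subunit, had 8.84 and 11.2 CPM with AIN76A, 16.5, 12.7 and 10.5 CPM with NWD1 and 10.5 and 3.80 CPM with NWD2. Mrpl3, of the catalytic region, had 25.4 and 38.2, then 41.7, 32.6 and 30.6, then 41.0 and 13.2 CPM in the same order. Mrps15 had the smallest range of the 6, from 33.9 CPM in NWD2 replicate 2 to 76.4 CPM in NWD1 replicate 1. NWD2 replicate 2 was again the lowest in all 3 genes. Leaving out that library kept all 6 at an r of at most 0.01 with the other members, and leaving out AIN76A replicate 1 put them between -0.04 and 0.24.

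Several other values differed in the same libraries. Epcam, the surface protein used in the sort, had 510 and 986 CPM with AIN76A, 1338, 1182 and 1103 CPM with NWD1 and 838 and 225 CPM with NWD2. Its r with the median of the 6 was 0.948, and 7.95% of all genes tested had an r above 0.8. The summed CPM of 6 epithelial markers, Epcam among them, went the other way in NWD2 replicate 2. That sum was highest there, at 11115 CPM against 6977 to 8532 CPM elsewhere. NWD2 replicate 2 also had the highest summed enterocyte markers, 76958 CPM against 34194 to 52969 CPM elsewhere. The library kit does not mark strand, and in the GENCODE M21 annotation 5 of the 6 genes overlap exons of another gene (Mrps24 and Urgcp, Mrps34 and Nme3, Mrps26 and 4930473A02Rik, Mrps30 and B430218F22Rik, Mrpl3 and Gm38077), against 25 of 68 other members. Where exons overlap, such reads cannot be told apart. The annotation behind these counts is not given, so whether these overlaps were also in it is not known. The annotated transcripts were 918, 937 and 995 bases long for Mrps34, Mrps15 and Mrps24 and 3319, 3972 and 4278 for Mrps30, Mrpl3 and Mrps26, below and above the median of 1327.5 for the other members. The part of the sort, the cell mix, the overlaps and transcript length in these values was not tested.

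The ratio of summed Mrpl to summed Mrps CPM, by gene name, is free of the scaling between libraries. It was 2.54 and 2.29 with AIN76A, 2.25, 2.29 and 2.29 with NWD1 and 2.32 and 2.77 with NWD2. NWD2 replicate 2 was the highest, AIN76A replicate 1 came next, and the other 5 lay between 2.25 and 2.32. Without the 6 departing genes the ratio was 2.72 and 2.62 with AIN76A, 2.66, 2.72 and 2.67 with NWD1 and 2.59 and 2.92 with NWD2, so that NWD2 replicate 2 was still the highest and NWD2 replicate 1 the lowest. With Mrps18a and Mrps30 counted in the large subunit and Mrps36 left out, which gives 48 large and 26 small subunit genes, the ratio was 2.81 and 2.53 with AIN76A, 2.52, 2.54 and 2.56 with NWD1 and 2.55 and 3.08 with NWD2. The same pair of libraries led, and the diets overlapped.

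Ribosomal proteins of the mitochondrion whose genes carry other names mostly followed the members. Of the 7, 5 had an r above 0.8 with the members' median, and their median log2 fold changes were -0.54, -0.38 and 0.16 in the order NWD1 against AIN76A, NWD2 against AIN76A and NWD2 against NWD1. Chchd1, a small-subunit protein, had 48.8 and 24.2 CPM with AIN76A, 32.1, 19.1 and 15.7 CPM with NWD1 and 27.9 and 25.4 CPM with NWD2, an r of 0.99. Dap3, a GTP-binding protein of the small subunit, had 86.8 and 69.6, then 71.1, 48.8 and 60.2, then 73.9 and 61.4 CPM. In both genes AIN76A replicate 1 was the highest library. Of 13 tested transcripts of the mitochondrial genome, 3 had an r above 0.8, and the median log2 fold changes of all 13 were -0.16, -0.04 and 0.27. The ribosomal RNAs around which these proteins assemble, singled out after their values were seen, were 2 of the 3. The small-subunit RNA mt-Rnr1 had 1398 and 631 CPM with AIN76A, 784, 640 and 506 CPM with NWD1 and 947 and 799 CPM with NWD2 (r = 0.94), and the large-subunit RNA mt-Rnr2 had an r of 0.90. Both were highest in AIN76A replicate 1 and lowest in NWD1 replicate 3.

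**Figure D5:**
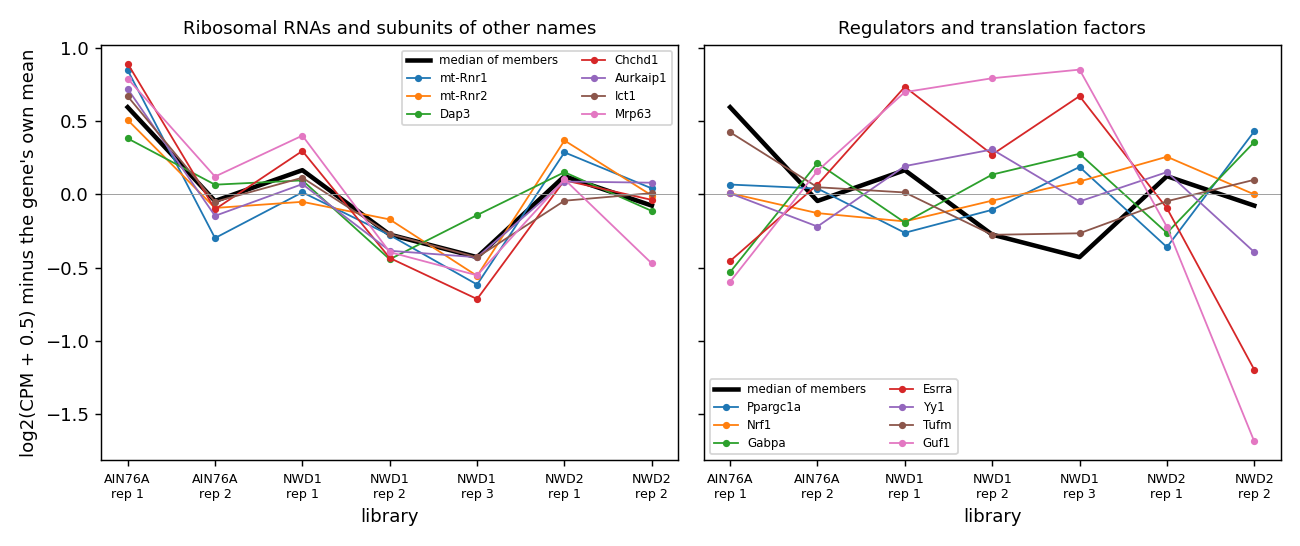
Levels by library of the mitochondrial ribosomal RNAs and ribosomal proteins of other names (left) and of regulators and translation factors (right), as log2(CPM + 0.5) minus the gene's own mean, with the median of the 75 members in black. On the left mt-Rnr1 has r = 0.94 with the black line and Chchd1 0.99, while Esrra and Guf1 on the right are lowest in NWD2 replicate 2. Ptcd3 and Gadd45gip1, of the list of 7 proteins with other names, are not drawn.

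The genes that build, load and regulate the mitochondrial ribosome gave no call in any comparison. Beside the 11.3% of all genes with an r above 0.8, 7 of 24 assembly factors had one, as did 6 of 16 translation factors, 3 of 17 mitochondrial tRNA synthetases, 4 of 11 genes of mitochondrial DNA replication and transcription, and 0 of 9 regulators. The median log2 fold changes of these 5 lists with NWD1 against AIN76A were -0.07, -0.26, -0.17, -0.23 and 0.20. Of the nuclear genes of oxidative phosphorylation, 54 of 66 had an r above 0.8, with a median of -0.50. Fars2, the phenylalanine tRNA synthetase, had the smallest p among the nuclear genes of these lists in that comparison, at -0.60 (unadjusted p = 0.0629, edgeR adjusted p = 0.878). With NWD2 against AIN76A the smallest were Mrp63, a large-subunit protein, at -0.66 (unadjusted p = 0.137), and Mtg1, a GTPase of large-subunit assembly, at -0.54 (unadjusted p = 0.151). The messenger mt-Co3 had the smallest p of all in both comparisons with NWD1. It was at 104 and 94.7 CPM in NWD1 replicates 1 and 2 and at 0.180 CPM or less in the other 5 libraries, NWD1 replicate 3 among them.

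The translation factor Guf1, which binds the ribosome during elongation, had the next smallest p with NWD2 against NWD1. Its levels were 4.23 and 7.50 CPM with AIN76A, 11.1, 11.9 and 12.4 CPM with NWD1 and 5.63 and 1.72 CPM with NWD2. All NWD1 libraries lay above all others, and the log2 fold change with NWD2 against NWD1 was -1.68 (SE 0.51, edgeR adjusted p = 0.518). Its r with the median of the 6 departing members was 0.866, and that of Esrra, a nuclear receptor that drives mitochondrial genes, was 0.883. Yars2, of the tRNA synthetase list, had a higher r of 0.954, and Lrpprc, of the translation factor list, had 0.816. Of all genes tested, 7.95% had an r above 0.8. These genes were singled out after their values were seen. Esrra had 41.9 and 60.4 CPM with AIN76A, 96.2, 69.7 and 92.1 CPM with NWD1 and 54.0 and 24.9 CPM with NWD2. The NWD1 libraries were the highest, and the value with NWD2 against NWD1 was -1.13 (SE 0.37, edgeR adjusted p = 0.533). Nrf1, whose motif was counted in the promoters above, stayed between 22.7 and 31.0 CPM in all libraries, with overlap between all diets. Gabpa, of the ETS family, had 23.1 and 39.0 CPM with AIN76A, 29.3, 36.9 and 40.8 CPM with NWD1 and 27.9 and 43.1 CPM with NWD2, and was lowest in AIN76A replicate 1, where most members were highest.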

How the data were processed

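Counts per Ensembl gene and TPM were deposited by the authors. The build mm9 and the tools STAR 2.4.2a, HTSeq 0.6.1 and edgeR are listed without roles per the submitters' processing notes; annotation, strand setting and the gene lengths behind the deposited TPM are not given in the sources used here. The number of TPM columns left out was 1, headed as an NWD2 replicate that matches no sample title. Counts were tested in R 4.3.3 with edgeR 4.0.16 (TMM, filterByExpr, robust quasi-likelihood F test, all 7 libraries, diet as the only term, 4 residual degrees of freedom). Of 37310 genes 14626 were tested, and p-values were adjusted over all of them by Benjamini-Hochberg, with calls at 0.05. The biological coefficient of variation was 0.363. Totals of 14034315 to 77959407 counts make counting error small beside it.

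Members and lists were chosen with earlier results of these data known. Named members were those of the role lists, the 3 highest and 3 lowest fold changes per comparison and the 5 highest and 5 lowest TPM, and per comparison the 2 smallest p over the pathway lists. Mrps15, Mrps26, Mrps35, Mrpl37, Mrpl43, Mrpl50, Chchd1, Dap3, Epcam, Yars2, Lrpprc, the ribosomal RNAs and the regulators were added after their values were seen. Alternatives were DESeq2 1.42.0 size factors or its Wald test, library size, no filter, limma 3.58.1 on log2(TPM + 1), a term for replicate number, for sex or for i5 index, and each library left out. In the last, the spread of a diet with 1 remaining library is borrowed from the other diets. Of 76 Ensembl IDs 75 matched GENCODE M21, used for overlaps and lengths. Promoters are from RefSeq (GRCm38.p6).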

Additional observations from a re-analysis of the deposited data

How the results depend on the processing

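No member was called under any alternative in either comparison with AIN76A. With NWD2 against NWD1 the count was 1 with no filter on low counts, Mrps30, where 384 genes were called in all, and 0 otherwise. Over all genes edgeR called 0 in each comparison, against 85, 190 and 384 with no filter, 1, 52 and 180 with the DESeq2 Wald test, and at most 2 under any other alternative. The median log2 fold change of the members with NWD2 against NWD1 turned to -0.034 with library size as the scaling and to -0.12 on log2(TPM + 1), which lacks NWD1 replicate 3. With NWD2 against AIN76A it turned to 0.088 with the i5 index as a term, where the index effect rests on NWD1 replicate 3 alone. The libraries of these diets share no index, so diet and index cannot be told apart between them. Of the NWD1 libraries only replicate 3 has the index of the NWD2 libraries. With NWD1 against AIN76A the members' median was -0.13 on log2(TPM + 1), where all genes had a median of 0.10. Library size as the scaling moved the median of all genes to 0.11, -0.15 and -0.19 in the order NWD1 against AIN76A, NWD2 against AIN76A and NWD2 against NWD1. Leaving out each library gave medians from -0.75 to -0.11, from -0.56 to 0.074 and from 0.07 to 0.40 in that order, with 0 members called. The ends without AIN76A replicate 1 were -0.11 and 0.074. The cause of these shifts was not tested. DESeq2 size factors, the DESeq2 Wald test, no filter and sex as a term kept all 3 medians in direction. The sex term rests on NWD1 replicate 2, the only female library, and comes close to leaving it out. The medians of NWD1 against AIN76A and NWD2 against NWD1 were -0.418 and 0.136 with that term. Without that library they were -0.417 and 0.134. An effect of sex can therefore not be told apart from that library.

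Samples of the same number in different diets share only a number in the labels. Correlations of their deviations from the diet means ranged from 0.063 to 0.324, and each pair of diets shares no more than 2 numbers. For pairs of different numbers they ranged from -0.324 to 0.233. In a diet with 2 libraries the deviations mirror each other, so many of these values differ only in sign. They cannot show whether samples of the same number belong together. With the replicate block the medians were -0.33, -0.26 and 0.09, and 0 members were called in each comparison.

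Of 2014 values of the 53 named members over the alternatives, 1 passed the threshold, 211 had another sign and 217 moved by 1 SE or more. With 2 or 3 libraries a diet the members' median SE was 0.31 on the log2 scale with NWD1 against AIN76A, so differences of the size of the medians were not detectable for single genes.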
